A study of Mus musculus with 9 samples.

Results

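The miR-29 family comprised 7 mature miRNAs in small RNA libraries of subcutaneous fat of the mouse. They were taken by name, as the arms of miR-29a, miR-29b and miR-29c, from the 860 mature miRNAs measured, and no measured value entered that choice. The 7 arms were miR-29a-3p, miR-29a-5p, miR-29b-3p, miR-29b-1-5p, miR-29b-2-5p, miR-29c-3p and miR-29c-5p, and all 7 passed the filter on low values that left 489 miRNAs for testing.

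The study compared mice lacking Ago1 in endothelial cells with their wild-type littermates. The product of Ago1 is one of the Argonautes, the proteins that carry a mature miRNA to its target mRNAs. There were 9 libraries from 9 individual mice, 3 with the genotype label WT, 3 with Hete KO and 3 with Homo KO, called WT, Hete_KO and Homo_KO here. All mice were 24 weeks old and shared a diet rich in fat and sucrose, begun at week 8 of age and kept for 16 weeks, so no group on a standard diet was included. The labels name neither the mouse strain nor the Cre driver, and mRNA of Ago1 was not analysed here. RNA came from whole tissue, so the loss of Ago1 in endothelium was read in a mixture of adipocytes, stromal, vascular and blood cells, in which fewer cells of a type and less RNA per cell cannot be told apart.

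The 3p arms of miR-29 are known as brakes on extracellular matrix. In several tissues of mouse and human they pair with the mRNAs of fibrillar and basement membrane collagens, elastin and fibrillin, and transforming growth factor beta, the main driver of fibrosis, lowers them. They also target the DNA methyltransferases Dnmt3a and Dnmt3b, and miR-29 is raised in fat and muscle in models of diabetes, where it dampens the response to insulin. Fat tissue that expands on a rich diet lays down collagen, so the family bears on the stroma of this tissue as well as on its adipocytes.

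The 3 guide arms of the family carry the same seed, AGCACCA, which is bases 2 to 8 of the miRNA and the part that sets its targets. The seed is shown in capitals in each sequence, 5′ to 3′, from RefSeq on GRCm38.p6.
miR-29a-3p: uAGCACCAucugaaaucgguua
miR-29b-3p: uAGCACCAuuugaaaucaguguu
miR-29c-3p: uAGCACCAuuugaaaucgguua
Counting from 1 at the 5′ end, miR-29a-3p and miR-29c-3p differed by C10U alone (first the base of miR-29a-3p, then that of miR-29c-3p), so a read is told apart between them by that base alone. miR-29a-3p and miR-29b-3p differed by C10U, G18A, U21G and A22U over the 22 positions they share. No other miRNA in the files had this seed among the 698 whose name matched a RefSeq mature sequence.

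The opposite, 5p arms have no common seed. Their 4 sequences held 4 different stretches at bases 2 to 8, again in capitals.
miR-29a-5p: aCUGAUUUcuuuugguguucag
miR-29b-1-5p: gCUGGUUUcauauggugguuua
miR-29b-2-5p: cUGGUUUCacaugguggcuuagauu
miR-29c-5p: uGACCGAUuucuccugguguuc
The 5p arms of the miR-29b hairpins share the run CUGGUUUCA, offset by a base. Aligned at that offset, they also match at most bases after the run. Single bases and the ends of each arm thus mark its own locus.

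The 7 arms come from 4 hairpins in 2 clusters. On chromosome 6 (GRCm38, minus strand) Mir29a lies at 31062660 to 31062747 and Mir29b-1 at 31063023 to 31063093, with 275 bases between them. GENCODE vM21 places no other gene over Mir29a, and Mir29b-1 overlaps the exon of the long noncoding RNA gene Gm27019 in part. On chromosome 1 (plus strand) Mir29b-2 lies at 195037040 to 195037120 and Mir29c at 195037547 to 195037634, with 426 bases between them, and both lie in an exon of the noncoding host gene A330023F24Rik. On the opposite strand they also fall within an exon annotated to Cd46, which encodes a complement regulator. The mature miR-29b-3p is identical from both miR-29b hairpins, which are printed here with both arms in capitals to show why its reads cannot be given to a cluster.
Mir29b-1: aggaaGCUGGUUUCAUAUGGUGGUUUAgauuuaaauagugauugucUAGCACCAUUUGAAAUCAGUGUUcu
Mir29b-2: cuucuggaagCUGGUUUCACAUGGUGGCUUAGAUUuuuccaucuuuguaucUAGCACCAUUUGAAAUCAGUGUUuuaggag

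Levels are the authors' deposited values on a log2 scale with 1 added. For the 103 most abundant ranks the value is the same in all 9 libraries, so for an abundant miRNA the level states its rank. Down to rank 402, the lowest held by a miR-29 arm, the values at a rank differed by at most 0.12 between libraries, and at lower ranks by up to 1.26. The number of reads is unknown. The floor count, which is how many miRNAs sat at the lowest value of a library and the remaining sign of its depth, ran from 63 to 152. Libraries correlated at 0.962 to 0.984 (Pearson, over the 860 miRNAs). All 9 adipocyte, 10 fibroblast and mural and 2 endothelial marker miRNAs were above the lowest value in every library. So were all 6 leukocyte, 4 erythroid and 7 epithelial marker miRNAs, so this check does not tell the tissue apart. The mean of 4 skeletal muscle miRNAs was highest in WT replicates 1 and 2 and Hete_KO replicate 2, at 13.40, 13.73 and 14.35, and between 6.17 and 11.68 elsewhere.

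Guide arms of miR-29a and miR-29c were among the most abundant miRNAs of the tissue, and none of the 7 arms passed the test between any genotypes. Of miR-29a-3p, the most abundant, the level was 15.54, 15.54 and 15.65 in WT replicates 1, 2 and 3, 15.54, 15.65 and 15.65 in Hete_KO, and 15.72 in each Homo_KO mouse. It was rank 22, 22 and 21 of 860 in WT, 22, 21 and 21 in Hete_KO and 20 in all 3 Homo_KO mice. The Homo_KO mice thus lay above every other mouse, by 1 or 2 ranks. The fitted log2 fold change of Homo_KO against WT was 0.14 ± 0.093 (SE), which is 1.11-fold with a 95% interval of 0.956 to 1.28 (limma, Benjamini-Hochberg adjusted p = 0.385). Because the Homo_KO values are 1 shared rank, their SD of 0 is no measure of the spread between these mice. The log2 fold change of Homo_KO against WT was 0.13 with the muscle mean as a covariate and 0.14 with the floor count. It was 0.071 without the 3 libraries with most muscle miRNA, which leaves replicate 3 as the only WT mouse.

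miR-29c-3p was nearly as abundant, at 15.34, 15.46 and 15.12 in WT, 15.22, 15.54 and 15.54 in Hete_KO and 15.46, 15.54 and 15.54 in Homo_KO. WT replicate 3 and Hete_KO replicate 1 were lowest, and the groups overlapped. The log2 fold change of Homo_KO against WT was 0.21 ± 0.13, or 1.15-fold (95% interval 0.941 to 1.41, limma, adjusted p = 0.376), with the smallest adjusted p of the family. It was 0.053 with the floor count as a covariate, 0.11 without WT replicate 3 and 0.39 without the 3 libraries with most muscle miRNA. The last value rests on a single WT mouse, replicate 3, which had the lowest miR-29c-3p of all libraries. miR-29a-3p exceeded it in 9 of 9 libraries, by 0.22 ± 0.14 log2 units on average (SD, n = 9).

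miR-29b-3p, the guide arm that both clusters make, was far less abundant than the other guides. Its level was 10.64, 10.85 and 10.82 in WT, 10.56, 11.16 and 11.01 in Hete_KO and 10.95, 10.92 and 10.88 in Homo_KO. The Homo_KO mice lay above all WT mice and inside the range of Hete_KO, which held both the lowest and the highest value. The margin over WT was small, with Homo_KO replicate 3 at rank 105 and WT replicate 2 at rank 106. Homo_KO against WT gave 0.15 ± 0.16 (SE), or 1.11-fold (95% interval 0.857 to 1.43, limma, adjusted p = 0.593). With the floor count as a covariate the sign turned, to a log2 fold change of -0.048.

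**Figure D1:**
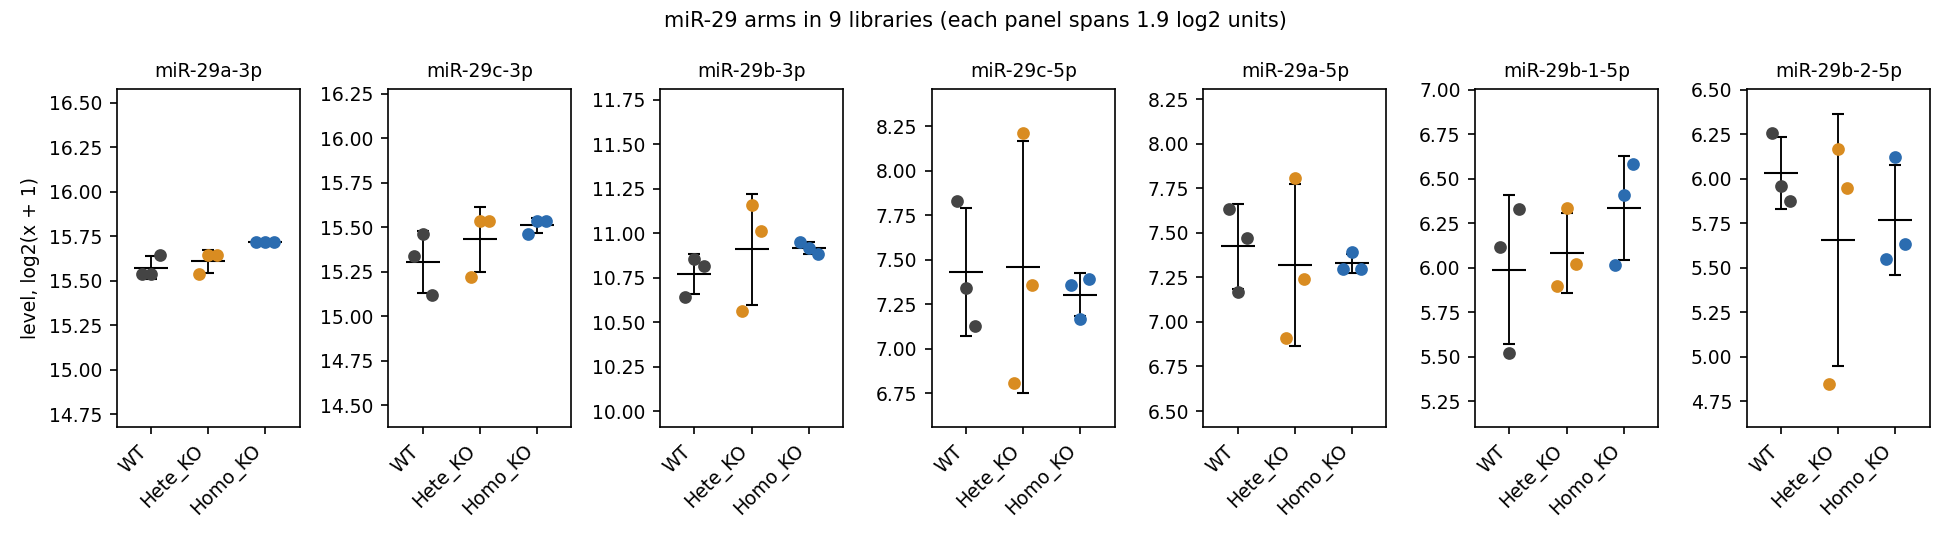
Level of each miR-29 arm, log2(x + 1), in the 3 mice of each genotype (points, left to right replicates 1 to 3) with the mean and SD (bars), every panel spanning the same width of scale. The 3 Homo_KO points of miR-29a-3p coincide at 15.72, above the 6 other libraries, and Hete_KO replicate 1 is the lowest point of miR-29c-5p, miR-29a-5p and miR-29b-2-5p.

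Back-transformed, miR-29a-3p and miR-29c-3p together made up nearly the whole family. miR-29a-3p held 50.3% to 57.9% of the summed 3p arms, miR-29c-3p 40.1% to 47.7% and miR-29b-3p 1.73% to 2.26% over the 9 libraries. Mature lengths were 22 to 25 bases, so a length correction would change these shares little, and whether the authors made one is not stated in the labels. Among WT mice miR-29a-3p held 53.6% ± 3.89 of that sum, among Hete_KO mice 52.0% ± 2.10 and among Homo_KO mice 52.6% ± 0.697 (SD, 3 mice a group). All 7 arms held 1.37% ± 0.0439 of a library's summed level in WT, against 1.45% ± 0.120 for Hete_KO and 1.54% ± 0.0205 for Homo_KO. In single libraries this share was 1.36%, 1.42% and 1.33% in WT, 1.31%, 1.52% and 1.52% in Hete_KO and 1.52%, 1.55% and 1.55% in Homo_KO, so that Homo_KO lay above WT, while Hete_KO spanned both. The summed level of all miRNAs is nearly the same in every library, and the top ranks have fixed values. These shares therefore mostly restate the ranks of miR-29a-3p and miR-29c-3p and are no measured share of reads. In Homo_KO those ranks were partly shared between mice, so the small SDs there are no measure of the spread between mice. As the sum of the arms is a score over the members, it was not tested.

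The 5p arms, the passenger strands, were much lower and more variable. miR-29c-5p, from the chromosome 1 cluster, was at 7.83, 7.34 and 7.13 in WT, 6.81, 8.21 and 7.36 in Hete_KO and 7.36, 7.17 and 7.39 in Homo_KO. miR-29a-5p, from chromosome 6, was at 7.64, 7.17 and 7.47 in WT, 6.91, 7.81 and 7.24 in Hete_KO and 7.30, 7.39 and 7.30 in Homo_KO. For both, Hete_KO replicate 1 was lowest and Hete_KO replicate 2 highest of all 9 libraries, and the Homo_KO mice lay between them. These arms did not keep an order, with miR-29c-5p above miR-29a-5p in 6 of 9 libraries and a mean difference of 0.042 ± 0.23 (SD).

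The locus-specific passengers of miR-29b were the lowest of the family. miR-29b-1-5p, from chromosome 6, was at 6.12, 5.52 and 6.33 in WT, 5.90, 6.33 and 6.02 in Hete_KO and 6.01, 6.41 and 6.58 in Homo_KO. miR-29b-2-5p, from chromosome 1, was at 6.26, 5.96 and 5.87 in WT, 4.85, 6.17 and 5.95 in Hete_KO and 5.55, 6.12 and 5.63 in Homo_KO. The groups overlapped for both, and Hete_KO replicate 1 held the lowest miR-29b-2-5p. miR-29b-1-5p exceeded miR-29b-2-5p in 1 of 3 WT, 3 of 3 Hete_KO and 3 of 3 Homo_KO libraries. The difference in log2 units was -0.042 ± 0.45 among WT mice, 0.43 ± 0.54 among Hete_KO and 0.57 ± 0.35 among Homo_KO mice (SD, 3 mice a group), so the gap between the group means was of the size of the spread within a group. Over all 9 libraries it was 0.32 ± 0.48 (SD), and the order of these arms was not fixed.

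The order of levels over the family was thus miR-29a-3p, miR-29c-3p, miR-29b-3p, the pair miR-29c-5p and miR-29a-5p, and the pair miR-29b-1-5p and miR-29b-2-5p. Outside these pairs, each arm exceeded the next in 9 of 9 libraries. Means over the 9 libraries ran from 15.63 for miR-29a-3p to 5.82 for miR-29b-2-5p.

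The 3p arm led at every hairpin, by far more at Mir29a and Mir29c than at the miR-29b hairpins. At Mir29a the 3p arm exceeded the 5p arm by 8.28 ± 0.26 log2 units (SD, n = 9 libraries), from 7.84 to 8.63. At Mir29c the difference was 8.02 ± 0.37, from 7.32 to 8.42. The lead of miR-29b-3p was 4.73 ± 0.32 over miR-29b-1-5p and 5.05 ± 0.38 over miR-29b-2-5p, and each of these takes the guide of both hairpins against the passenger of one. In all 4 pairs the range in Homo_KO overlapped that in WT. At Mir29a it was 8.33 to 8.42 in Homo_KO and 7.90 to 8.37 in WT, and at Mir29c 8.10 to 8.37 and 7.51 to 8.12.

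**Figure D2:**
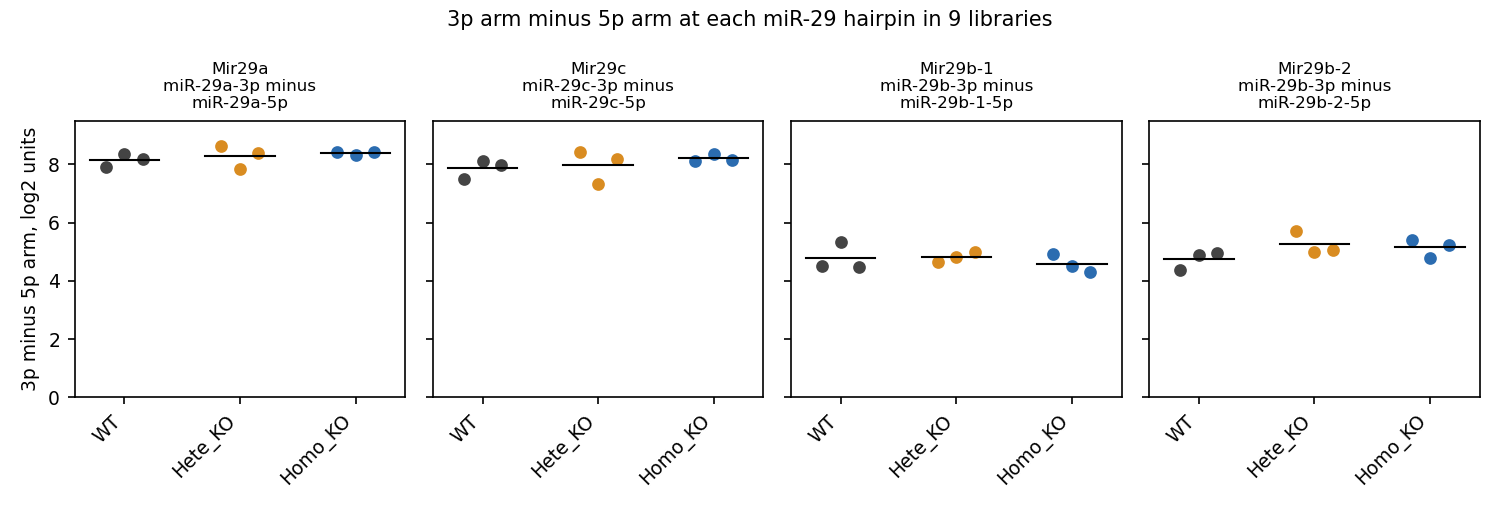
Level of the 3p arm minus that of the 5p arm at each miR-29 hairpin, in log2 units, for the 3 mice of each genotype (points) with the group mean (line). Mir29a and Mir29c sit near 8 log2 units and the miR-29b hairpins near 5, in every genotype.

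Homo_KO was compared with WT to ask whether the family differs in fat of mice with the label Homo KO. No arm of 7 was called at an adjusted p under 0.05 (limma), and none had an unadjusted p under 0.05. Over all 489 tested miRNAs 3.27% were called, 1.64% higher and 1.64% lower, and 23.9% had an unadjusted p under 0.05. The Homo_KO and WT mice did not overlap for 2 of the 7 arms, miR-29a-3p and miR-29b-3p, both higher, where 32.7% of the tested miRNAs had groups without overlap and 18.4% lay higher in that way. The family's share is near that background and is no result about the family. The log2 fold change was positive for 4 arms and negative for 3, with a median of 0.14 against 0.073 over all tested miRNAs. The 3p arms had positive values, as did miR-29b-1-5p at 0.35 ± 0.25 (SE), while miR-29a-5p was at -0.095 ± 0.23, miR-29c-5p at -0.13 ± 0.33 and miR-29b-2-5p at -0.26 ± 0.34.

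The width of the interval differed between the arms. For miR-29a-3p the 95% interval excluded a rise of more than 1.28-fold and a fall below 0.956-fold. For miR-29b-1-5p it ran from 0.856-fold to 1.89-fold and for miR-29b-2-5p from 0.493-fold to 1.41-fold. Changes within those limits in these passengers were thus not excluded with 3 mice a group. All are on a scale in which the libraries hold nearly the same values at each rank, where a change shared by most miRNAs cannot be seen.

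Hete_KO against WT had no called arm of 7 and none at an unadjusted p under 0.05 (limma), where 0.409% and 15.7% of the 489 tested miRNAs had them. No arm had groups without overlap, against 17.2% of the tested miRNAs, 8.59% higher and 8.59% lower. The log2 fold changes were 0.037 ± 0.093 for miR-29a-3p, 0.13 ± 0.13 for miR-29c-3p and 0.14 ± 0.16 for miR-29b-3p, and among the passengers they ran from -0.38 ± 0.34 for miR-29b-2-5p to 0.094 ± 0.25 for miR-29b-1-5p (SE). The low value of miR-29b-2-5p rested on Hete_KO replicate 1, without which it was 0.028. Without that replicate the guides were at 0.074 for miR-29a-3p, 0.23 for miR-29c-3p and 0.31 for miR-29b-3p. No arm was called in that fit (limma, smallest adjusted p 0.227). There 1 arm had an unadjusted p under 0.05, as had 97 of the 489 tested miRNAs. This comparison and the one before share the 3 WT mice.

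Homo_KO against Hete_KO likewise had no called arm of 7 and none at an unadjusted p under 0.05 (limma), where 0% and 8.38% of the tested miRNAs had them. miR-29a-3p was the only arm whose groups did not overlap, higher in Homo_KO by 0.11 ± 0.093 log2 units (SE, limma, adjusted p = 0.813), and 12.3% of the tested miRNAs had groups without overlap. A moderated F-test over the 3 genotypes called none of the 7 arms and gave none an unadjusted p under 0.05 (limma, smallest adjusted p 0.585), where it called 1.23% of all tested miRNAs and 18.8% had an unadjusted p under 0.05.

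**Figure D3:**
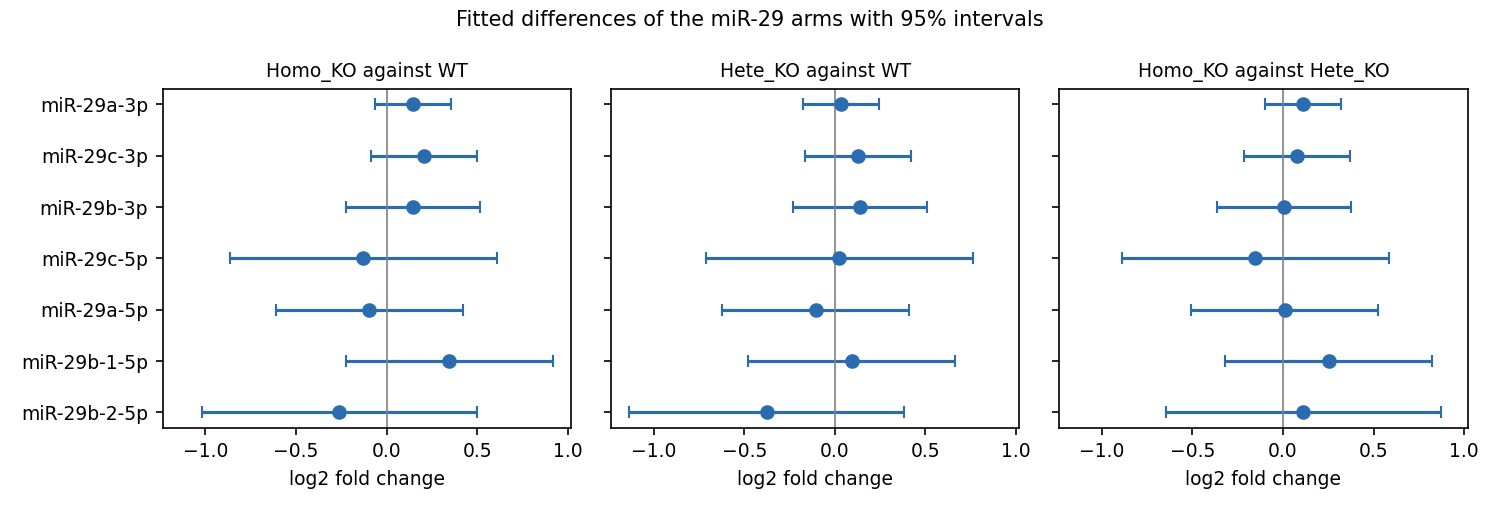
Fitted log2 fold change of each miR-29 arm in the 3 comparisons (points) with its 95% interval (bars), from 1 limma fit over 9 libraries. Every interval includes 0, and those of the 3p arms are narrower than those of the 5p arms.

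What set miR-29a-3p apart was how little it moved. Its 9 values spanned 0.18 log2 units, and 1 of the 489 tested miRNAs, miR-30d-5p, spanned less. Among the 22 other miRNAs within 1 log2 unit of its mean, none had a smaller range, and their median range was 0.616. The values of miR-29a-3p took only 3 distinct levels, each that of a rank. For miR-29c-3p the range was 0.418, smaller than in all but 2 of its 24 neighbours. Among the passengers, the ranges of miR-29c-5p (1.41) and miR-29b-2-5p (1.41) were above the median range at their levels (0.970 and 1.11). Those of miR-29a-5p (0.895) and miR-29b-1-5p (1.06) were below it (1.02 and 1.09). Rank levels lie close together near miR-29a-3p, with 15.82, 15.72, 15.65 and 15.54 at ranks 19, 20, 21 and 22, so that moving a rank there changes the level by about 0.1. The ranks next to it were held by miRNAs that moved more. miR-148a-3p, of adipocytes, lay between ranks 17 and 25 and miR-23b-3p between ranks 19 and 25.

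**Figure D4:**
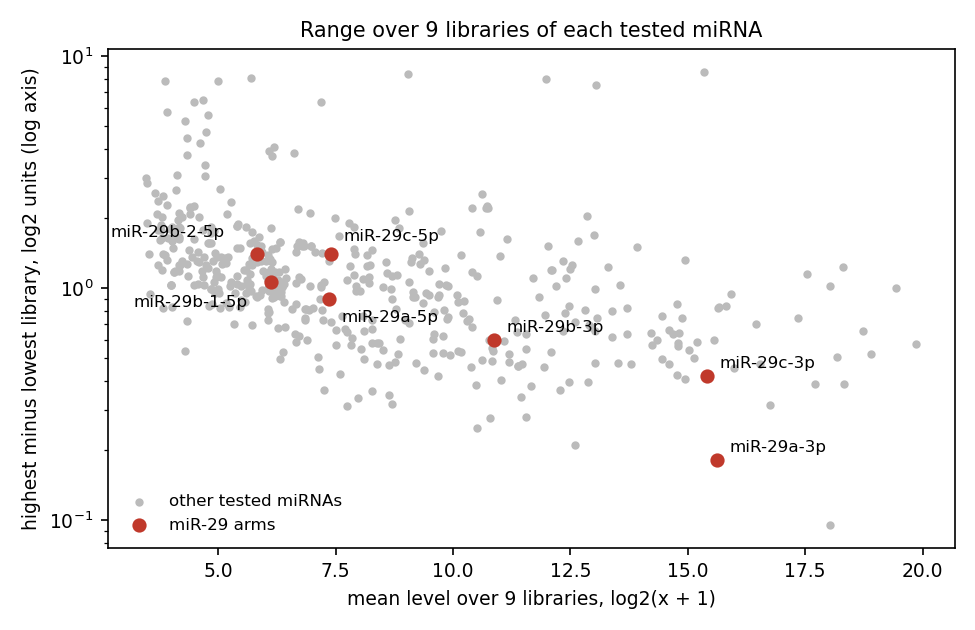
Highest minus lowest of the 9 libraries for each of the 489 tested miRNAs, in log2 units on a log axis, against the mean level, with the 7 miR-29 arms marked. miR-29a-3p (0.18) lies below all 22 other miRNAs within 1 log2 unit of its mean, while the 5p arms lie within the cloud.

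Arms of the family were also compared with each other over the 9 libraries, in 6 pairs. The pair with the highest r was miR-29b-3p with miR-29c-3p, which share the chromosome 1 cluster, with Pearson's r of 0.69 (exact permutation test, two-sided p = 0.0439, adjusted over 6 pairs p = 0.234) and Spearman's rho of 0.80 (exact permutation p = 0.0159, adjusted p = 0.0952). Over the 7 libraries other than Hete_KO replicates 1 and 2, which lay farthest from the median, r was 0.56 (exact permutation p = 0.210). miR-29a-3p with miR-29b-3p, of the chromosome 6 cluster, gave r = 0.62 and rho = 0.58 (exact permutation p = 0.0780 and 0.127, adjusted p = 0.234 and 0.231). For miR-29a-3p with miR-29c-3p, r was 0.46 and rho 0.55, with adjusted exact permutation p of 0.368 and 0.231. The order of the pairs changed for deviations from the genotype means, where r was 0.73 for miR-29a-3p with miR-29b-3p, 0.63 for miR-29b-3p with miR-29c-3p and 0.050 for miR-29a-3p with miR-29c-3p.

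Guide and passenger of a hairpin did not pass as a pair either. The r was 0.20 for the arms of miR-29a, 0.28 for miR-29b-3p with miR-29b-1-5p and 0.43 for the arms of miR-29c, with rho of 0.21, 0.30 and 0.52 and adjusted exact permutation p from 0.368 to 0.599 for r and from 0.231 to 0.598 for rho. Without the 2 libraries farthest from the median of the guide, r was 0.42, -0.016 and -0.22 in that order. For miR-29a-3p those were WT replicates 1 and 2, and Hete_KO replicate 1, which was kept, lay equally far from the median.

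Muscle miRNA and the floor count varied between the mice, and their values were set beside the arms after the data were seen. Against the muscle mean, r ran from -0.56 for miR-29a-3p to 0.63 for miR-29c-5p (7 relations, exact permutation test, smallest adjusted p 0.304, and 0.522 for rho, from -0.58 to 0.45). Without Hete_KO replicate 2 and Homo_KO replicate 2, the libraries farthest from the median, these were -0.60 and 0.43. With the muscle mean as a covariate, the log2 fold change of miR-29c-5p in Homo_KO against WT turned from -0.13 to 0.17. Against the floor count, miR-29b-3p had r = 0.66 and rho = 0.85 (exact permutation p = 0.0489 and 0.00607, adjusted over 7 relations p = 0.171 and 0.0425), and r was 0.57 over the 7 libraries other than WT replicate 3 and Hete_KO replicate 2 (exact permutation p = 0.210) and 0.59 within genotypes. miR-29c-3p had r = 0.73 and rho = 0.78 there (adjusted exact permutation p = 0.171 and 0.0685). The floor count was 70, 104 and 63 in WT and 116, 141 and 102 in Homo_KO. Depth itself was not measured. Its part in the higher 3p arms of Homo_KO was not tested beyond the fit that takes the floor count as a covariate.

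The miRNAs whose pattern over the 9 libraries was most like that of miR-29a-3p, out of 482 compared, were miR-125a-3p (r = 0.94), miR-150-5p (0.94), miR-193a-3p (0.89), miR-101c (0.87) and miR-100-5p (0.86). For deviations from the genotype means r was 0.88, 0.84, 0.84, 0.89 and 0.60 in that order. miR-29a-3p itself took only 3 distinct levels, 1 of them shared by all Homo_KO mice. These 5 miRNAs were picked as the highest of many and are a description. Of them miR-150-5p marks lymphocytes. The log2 of the sum of the 5 other leukocyte miRNAs was 14.08, 14.09 and 13.98 in WT, 14.36, 13.61 and 14.03 in Hete_KO and 14.51, 14.39 and 14.23 in Homo_KO, and its part in the pattern was not tested. Most like miR-29c-3p were miR-143-5p (0.95), miR-1839-3p (0.88), miR-148a-5p (0.87), miR-193b-3p (0.83) and miR-330-5p (0.82). miR-143-5p is an arm of a hairpin of smooth muscle and stromal cells, and miR-193b-3p is an adipocyte miRNA. The mean level of the 10 fibroblast and mural miRNAs, miR-143-5p among them, was 12.55, 12.55 and 12.67 in WT. It was 12.69, 12.43 and 12.72 in Hete_KO and 12.64, 12.62 and 12.76 in Homo_KO. For the 9 adipocyte miRNAs, miR-193b-3p among them, it was 13.73, 13.80 and 13.67 in WT. In Hete_KO it was 13.76, 14.02 and 13.90, and in Homo_KO 13.71, 13.90 and 13.99. The part of either cell type in the pattern was not tested. The lists around miR-29a-3p and miR-29c-3p shared no miRNA.

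Other miRNAs of fibrosis gave the setting for the family. Of 19 miRNAs reported to restrain fibrosis, as miR-29 does, 1 was called in Homo_KO against WT, the epithelial miR-203-3p, which rose by 0.95 ± 0.18 (SE, limma, adjusted p = 0.0314). Over all tested miRNAs 3.27% were called and 1.64% were called higher, so 1 call among 19 is near the background. In this list 15 log2 fold changes were positive and 4 negative, with a median of 0.34 against 0.073 over all tested miRNAs. The most abundant, miR-30a-5p and miR-26a-5p, were at 0.25 ± 0.092 and 0.34 ± 0.12 without passing the test. The list also holds the miR-200 family, which is epithelial too. Of the 7 epithelial miRNAs miR-203-3p held 69.5% to 97.3% of the summed level. The log2 of the sum of the 6 others was 7.67, 7.30 and 7.83 in WT, 11.19, 8.22 and 7.78 in Hete_KO and 8.49, 8.29 and 8.00 in Homo_KO. Hete_KO replicate 1 stood far above the rest and the Homo_KO mice lay above WT, and the part of epithelium in the rise of miR-203-3p was not tested.

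Of 15 miRNAs reported to promote fibrosis, 2 were called, both lower in Homo_KO, where 3.27% of all tested miRNAs were called and 1.64% were called lower. miR-221-3p, a miRNA of endothelium and of dividing cells, fell by 0.96 ± 0.21 on the log2 scale (SE, adjusted p = 0.0424 by limma). miR-154-5p, of the imprinted Dlk1-Dio3 cluster, fell by 0.87 ± 0.18 (SE, adjusted p = 0.0400 by limma). In this list 5 values were positive and 10 negative, with a median of -0.20. The most abundant of this list did not pass, with miR-21a-5p, known from fibrosis of heart and lung, at -0.20 ± 0.22 and the stromal miR-143-3p at 0.19 ± 0.19. In Hete_KO against WT neither list had a call, with medians of 0.28 and -0.27 against -0.017 over all tested miRNAs. The restraining list had 1 call there without WT replicate 2 or without Hete_KO replicate 1, and 2 without WT replicate 3 or with the stricter filter on low values. The promoting list had 2 calls without Hete_KO replicate 1, miR-221-3p and its cluster partner miR-222-3p. Calls over all tested miRNAs rose in these fits too, from 2 of 489 in the reported fit to 24 without Hete_KO replicate 1. They were 3 without WT replicate 2, 12 without WT replicate 3 and 10 of 262 with the stricter filter. In Homo_KO against Hete_KO there was no call either, other than 1 in the restraining list without the 3 muscle-rich libraries, with medians of 0 and -0.025 against 0.040.

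Among 14 miRNAs of insulin resistance and obesity, 13 were tested and miR-221-3p was the only call in Homo_KO against WT, with a median of -0.022. It is the same call as in the promoting list. Over all tested miRNAs 3.27% were called and the median was 0.073, which is the background for the cell type lists too. The cell type lists had few calls in that comparison. In the leukocyte list miR-142a-5p, a haematopoietic miRNA, rose by 1.26 ± 0.25 (SE, limma, adjusted p = 0.0314), miR-203-3p was the only call among epithelial miRNAs, and no adipocyte, fibroblast and mural, muscle, erythroid or endothelial miRNA was called. Medians were 0.12 for adipocytes, 0.057 for fibroblast and mural cells, -3.54 for muscle, 0.24 for leukocytes, -0.38 for erythroid cells, 0.64 for epithelium and -0.37 for endothelium. The endothelial miR-126a-3p and miR-126a-5p, 2 arms of a hairpin in Egfl7, were at -0.27 ± 0.19 and -0.47 ± 0.14 (SE, limma, adjusted p = 0.428 and 0.0869). None of these lists had a call in the reported fit of Hete_KO against WT or of Homo_KO against Hete_KO. The calls of miR-203-3p, miR-221-3p, miR-154-5p and miR-142a-5p each ended without WT replicate 1, WT replicate 2, Hete_KO replicate 3 or any of the Homo_KO replicates, with the muscle mean or the floor count as a covariate, or without the 3 libraries with most muscle miRNA, and those other than miR-203-3p also without WT replicate 3. Those of miR-221-3p and miR-154-5p also ended with no filter, and that of miR-221-3p with no variance trend. The adjusted p (limma) reached 0.264, 0.295, 0.251 and 0.128 in that order. The log2 fold change kept its sign, from 0.67 to 1.09 for miR-203-3p, -1.05 to -0.75 for miR-221-3p, -1.02 to -0.75 for miR-154-5p and 1.08 to 1.56 for miR-142a-5p.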

How the data were processed

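Small RNA from subcutaneous adipose tissue of 9 mice was extracted with Trizol and made into TruSeq small RNA libraries, per the labels' protocols. The authors deposited log2 values for 860 mature miRNAs, which carry the name FPKM and were judged from the values to be quantile-normalized log2(x + 1). The genome build was mm10, per the submitters' processing notes; aligner, counting tool and normalization: not given in the sources used here. Depth is unknown, so no counting interval is given.

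The planned log2(value + 1) was not taken again. Tested were miRNAs that exceeded the lowest value of 3 or more libraries and had a mean of at least 3.46, log2(10 + 1), which kept 489 and left out 371. Genotypes, taken from the labels, were compared in R 4.3.3 by limma 3.58.1 (variance trend, all 9 libraries, no covariate), with Benjamini-Hochberg adjustment over 489 miRNAs and a threshold of 0.05. Relations used exact two-sided permutation tests over all pairings. Scripts were tested on simulated data. Sequences came from RefSeq (GRCm38.p6), hairpin annotation from GENCODE vM21. The members, the lists and the tests were chosen with earlier results of these data known. Named were all 7 arms, the 5 miRNAs most correlated with miR-29a-3p and with miR-29c-3p, and of each list the 2 most abundant and the called members, of which those that bear on miR-29 are printed. Lists overlap, and were described by counts and medians. Alternatives are given in the closing section. Count-based tests were not run, as the deposited values are not counts.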

Additional observations from a re-analysis of the deposited data

How the results depend on the processing

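No miR-29 arm was called in any comparison under the 19 other settings tried, nor in the F-test under those that give one (pseudocount 10, no filter, a minimum of 100, median scaling, no variance trend, only the groups compared, the replicate block, each of 9 libraries left out, and, added after the data were seen, the muscle mean or the floor count as a covariate and leaving out the 3 libraries with most muscle miRNA). With 1 library left out the number of called arms was 0 to 0 throughout. Of 393 fold changes of arms under these settings 362 kept their sign. The cause of the sign changes was not tested.

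With the floor count as a covariate the log2 fold change was -0.048 for miR-29b-3p in Homo_KO against WT, and in Hete_KO against WT -0.053 for miR-29b-3p, -0.025 for miR-29c-3p and -0.36 for miR-29c-5p. With the muscle covariate miR-29c-5p was at 0.17 in Homo_KO against WT and 0.097 in Homo_KO against Hete_KO. Without the 3 libraries with most muscle miRNA, which leaves 1 WT mouse assumed to vary like the others, it was at 0.18 and 0.22 there and at -0.047 in Hete_KO against WT, where miR-29a-3p was at -0.055, miR-29b-3p at -0.031 and miR-29b-1-5p at -0.37.

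Leaving out 1 library gave ranges of -0.22 to 0.012 for miR-29a-5p and -0.28 to 0.069 for miR-29c-5p in Homo_KO against WT. In Hete_KO against WT they were -0.35 to 0.10 for miR-29a-5p, -0.14 to 0.26 for miR-29b-1-5p, -0.63 to 0.028 for miR-29b-2-5p and -0.35 to 0.35 for miR-29c-5p. In Homo_KO against Hete_KO they were -0.19 to 0.25 for miR-29a-5p, -0.29 to 0.37 for miR-29b-2-5p, -0.17 to 0.13 for miR-29b-3p, -0.025 to 0.13 for miR-29c-3p and -0.48 to 0.22 for miR-29c-5p. For relations, r ranged from 0.57 to 0.89 for miR-29b-3p with miR-29c-3p, passing only without WT replicate 3 (0.89, exact permutation test, adjusted p = 0.0286), and from -0.13 to 0.48 for the arms of miR-29a.

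Whether replicate numbers pair the mice is not given in the labels, and the check was mixed. Same-numbered libraries of different genotypes correlated at -0.282 to 0.548 in their deviations (0.377 to 0.548 for number 3), and 7 of 9 libraries correlated best with their own number, a hint from the data and not the design, so the block was not used in the reported fit. The replicate block called 0 miR-29 arms, as did the fit without it, but 25 against 16 of all miRNAs in Homo_KO against WT and 15 against 2 in Hete_KO against WT. The stricter filter, which left out both miR-29b 5p arms, gave 25 and 10 calls there, no filter 9 and 2, the muscle covariate 3 and 2, the floor count 0 and 0 (101 and 64 at an unadjusted p under 0.05), and leaving out the 3 muscle-rich libraries 8 and 10. With 1 library left out these counts ran from 2 to 25 and from 1 to 24. In the restraining fibrosis list of Homo_KO against WT the count ran from 0 to 3 over the settings and in the promoting list from 0 to 4. In Hete_KO against WT the replicate block called miR-203-3p (limma, adjusted p = 0.0337) and miR-221-3p (0.0433), 1 in each list.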
